A study of Mus musculus with 58 samples.

Results

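The cytosolic ribosomal protein genes encode the protein subunits of the cytoplasmic ribosome. They were taken by symbol, as protein-coding genes named Rpl, Rps, Rplp0 to Rplp2 or Rpsa, leaving out the S6 kinases (Rps6k) and names that mark pseudogenes. The rule found 84 genes among the 18088 in the table, 50 named as large subunit genes (Rpl) and 34 as small subunit genes (Rps). Of these, 83 passed the minimum mean value of 10 used for testing, and the muscle paralog Rpl3l, with a mean of 7.8, did not. Rps19bp1, which binds the subunit Rps19 but is not itself a subunit, also matched the rule. It was kept as a match and counted with the small subunit.

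RNA of the prefrontal cortex was sequenced in C57BL/6J mice of postnatal day 25 as 58 libraries in 12 groups. The mice were wild type (WT) or heterozygous for a Tbl1xr1 knock-in allele (HT), whose base change is not given in the labels; TBL1XR1 works in the corepressor complexes of NCoR and SMRT. Each genotype received fluoxetine, a serotonin reuptake inhibitor, lithium, a mood stabiliser that inhibits GSK3, or vehicle, from day 3 to day 24 through the milk of the dam, and females and males formed separate groups. Groups held 5 libraries, and 4 in WT lithium females and WT lithium males. The labels name neither litter nor dam and do not state that each library is 1 animal, so the spread behind a p-value may be technical, and a drug effect and a litter effect cannot be told apart.

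A ribosome holds 1 copy of nearly every one of these proteins, and cells make them in matched amounts. Their mRNAs typically begin with a C followed by a run of pyrimidines, the terminal oligopyrimidine or TOP motif, through which mTORC1 and the RNA-binding protein LARP1 set their translation and stability. Translation elongation factors and poly(A)-binding protein belong to the same class of mRNA. In neurons these mRNAs are also found in dendrites and axons. The genes have many processed pseudogenes in mammalian genomes, which matters for how reads are assigned.

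The bases around the start site are shown for the pair of genes that passed the test under lithium (Rpl14 and Rps15a), for Rps27 and its near-identical copy Rps27rt, for Rps10 as a long pyrimidine run, and for Rps3, the gene that moved most closely with the others. Each runs from 10 bases before to 20 bases from the annotated start on, in RefSeq's annotation of GRCm38.p6, 5′ to 3′ on the gene's strand. Capitals mark the unbroken run of pyrimidines that begins with C at the start, where there is one.
Rpl14, chr9:120571507-120571536, plus strand: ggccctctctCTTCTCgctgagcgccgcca
Rps15a, chr7:118116128-118116157, minus strand: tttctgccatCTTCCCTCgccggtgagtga
Rps27, chr3:90213629-90213658, minus strand: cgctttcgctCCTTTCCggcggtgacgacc
Rps27rt, chr9:114982720-114982749, minus strand: ttatcccttgCTTTCCggcggtgacgacct
Rps10, chr17:27635225-27635254, minus strand: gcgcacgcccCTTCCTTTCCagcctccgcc
Rps3, chr7:99483690-99483719, minus strand: aagggtcgccgcgctgcgcggcgtcattgc

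RefSeq's table held start sites for 64 of the 84 genes, with 76 starts in all. A C at the start followed by 4 pyrimidines was found at 14 of these 76 starts (18.4%), against 823 of all 32851 starts in the table (2.51%). Within 5 bases on either side of the start, such a run began at 42.1% of the members' starts and 18.3% of all starts. In the 300 bases from 250 before to 50 after the start, searched on both strands, CCGGAAG stood at 34.2% of the members' starts and 8.86% of all. The Sp1 motif GGGCGG stood at 60.5% and 35.7%, CTTTCC, which can lie inside a pyrimidine run, at 50% (38 of 76) and 26.6%, and CTTTTCC at 15.8% and 8.06%. AAGATGGC, the YY1 motif, stood at 10.5% and 2.75%, and TATAAA at 9.21% and 13.6%. A match is a description of these letters, and Rps3 shows no run at its annotated start.

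The genes were among the more abundant mRNAs of the tissue. Values are normalised read counts, and 77 of the 84 genes had a mean over 1000, with a median of 2401 for the members and 517 for all genes tested. Together they took 0.875% ± 0.068 (SD, n = 58) of all values, between 0.729% and 1.07%, although they are 0.464% of the genes. Levels of different genes are compared per kilobase of the union of their exons. On that scale Rplp1, which forms the ribosomal stalk with Rplp2, was highest at 11641 ± 1636 (SD over 58 libraries), and the median member was at 1405. Rps15 followed at 6548 ± 685, Rpl19 at 5579 ± 532, Rps3a1 at 5555 ± 315 and Rpl4 at 4724 ± 232. On this scale Rpl19 and Rps3a1 did not differ beyond their spread, while per kilobase of the longest transcript they stood at 7592 and 5555.

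The lowest per kilobase was Rpl3l, which replaces Rpl3 in striated muscle, at 4.7 ± 2.0, against 3217 ± 228 for Rpl3. Above it came Rps27 at 81.1 ± 72.1, Rpl12 at 82.2 ± 9.8, Rps27l at 192 ± 30.7 and Rps19bp1 at 307 ± 28.1. Other paralog pairs are given on the same scale. Rpl7l1, a nucleolar relative of Rpl7, stood at 324 ± 12.4 and Rpl7 at 1772 ± 91.8. Rpl22l1, whose level is tied to that of its paralog Rpl22 in other tissues, stood at 311 ± 40.6 and Rpl22 at 740 ± 55.5. Rpl36a and Rpl36al were level within their spread on this scale, at 741 ± 87.2 and 766 ± 71.6. Per kilobase of the longest transcript they stood at 1509.5 and 812.6, so this likeness depends on the length used. With its copies added, Rpl36a was at 874.4 per kilobase of exon union. The paralog symbol Rps4l is annotated as a pseudogene and was no member, and Rpl10l and Rpl39l were not analysed here.

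Some members with low values had near-identical copies with high ones. Transcripts of other genes in the table matched 30 of the 84 members at 95% identity or more, over at least 80% of the shorter transcript, and for 11 of them the copies held over 20% of the summed value. Rpl12 had a mean value of 296, and its identical copy Gm10275 held 91.7% of the sum. The copy Gm15500 held 72.8% for Rpl5, a subunit that carries 5S rRNA and binds Mdm2, and Rpl10-ps3 held 71.6% for Rpl10. Rpl27a and Rps23 shared their reads about evenly with 1 copy each (49.2% and 46.7% in the copy). Over all members and their copies, 6.8% of the summed value lay in copies. The counter was Salmon, per the submitters' processing notes, and such splits are therefore uncertain.

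The split also varied between libraries. Rps27 and Rps27rt are identical over 341 aligned bases. Rps27 took between 1.68% and 30.7% of their sum, with a median of 4.1%. Its value ran from 22.4 to 385 between libraries, while Rps27rt ran from 867 to 1990. Within groups, the SD of the log2 value was 0.90 for Rps27, 0.28 for Rpl10 and 0.24 for Rps27l, the highest 3, and 0.050 for Rpl15, 0.054 for Rpl7l1 and 0.057 for Rps6, the lowest 3. With the reads of the copies added, a setting chosen after the data were seen, the SD was 0.20 for Rps27 and 0.091 for Rpl10. Statements on Rps27, Rpl10, Rpl12 and Rpl5 alone therefore rest on how reads were divided.

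The genes moved together from library to library. In the deviation of each library from its group mean, over 58 libraries, the median correlation between 2 members was 0.616, and 98.6% of the 3403 pairs were above 0. It was 0.589 within the large subunit, 0.636 within the small subunit and 0.626 between them. A member followed the mean of the other members with a median r of 0.802, against -0.003 for the 16523 other genes. Rps3 (r = 0.931) followed it most closely, and Rpl8 had r = 0.911. Rpl5 (0.113), Rps27 (0.144), Rpl12 (0.171), Rpl7l1 (0.299), Rpl10 (0.302) and Rps19bp1 (0.382) followed it least. Of these, 4 had much of their signal in copies and 2 are no standard subunits. Signal in copies did not always go with a low r, as Rpl27a (49.2% in a copy) had 0.626 and Rps23 (46.7%) 0.736. Rps15a, without a copy, came next at 0.416. Whether copies account for a low r was not tested. These points share the library and its scaling, and the values are descriptions.

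The shared movement extended to other genes and to technical measures. Over 58 libraries, the members' mean deviation ran with that of nuclear-encoded oxidative phosphorylation genes at r = 0.745. The corresponding r was 0.743 for translation factors with TOP mRNAs, 0.683 for mitochondrial ribosomal proteins, -0.165 for ribosome biogenesis factors and 0.095 for mTORC1 genes. The library's length trend, which is the correlation over 16595 genes of the deviation with log2 transcript length, had r = -0.827 and rho = -0.834 with the members' mean deviation. Without HT fluoxetine female 4 (0.21) and HT lithium male 1 (-0.16), the libraries farthest from the median of the members' deviation, it was -0.80. The library's trend over GC content, taken in the same way, had r = 0.658 and rho = 0.662 with the members' mean deviation. The members' longest transcripts had a median of 1094 bases, against 3281 for all genes tested. The part of the length and GC trends in the shared movement was not tested. Microglial markers had r = 0.510 and pan-neuronal markers -0.424.

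**Figure D1:**
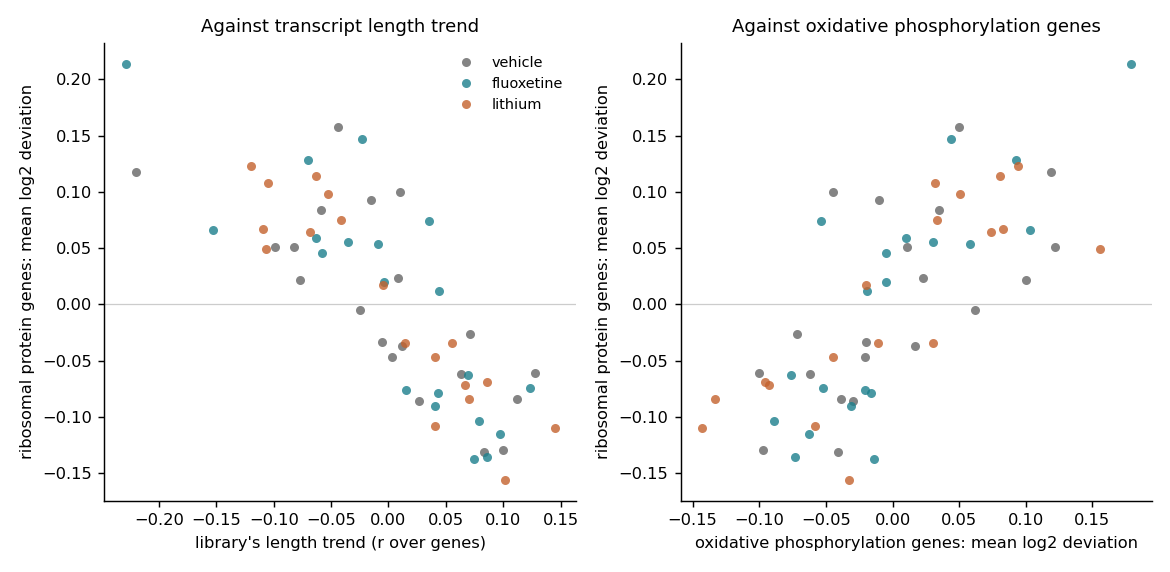
Mean log2 deviation of the ribosomal protein genes from their group mean in each of 58 libraries (vertical axis), against the library's correlation of deviation with transcript length (left) and against the mean log2 deviation of nuclear-encoded oxidative phosphorylation genes (right). Points are libraries coloured by treatment, and the members' deviation lies lower where long transcripts are higher (r = -0.827) and higher where oxidative phosphorylation genes are higher (r = 0.745).

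Summed over members, the subunits kept a near constant ratio while their level varied. The summed large subunit value was 1.54 ± 0.017 (SD, n = 58) times the small subunit value, with a range from 1.501 to 1.595. HT vehicle females had the highest group mean of the large subunit sum, 161119 ± 11113 (SD, n = 5), and HT vehicle males the lowest, 143201 ± 8395. The small subunit sum was 104747 ± 7970 and 92575 ± 5601 in these groups, and in WT fluoxetine males it was 104793 ± 7987, the highest mean. The large subunit sum ran from 148641 to 173374 in HT vehicle females and from 131969 to 151700 in HT vehicle males, so the groups overlapped. The other 10 group means of the large subunit sum lay between 145805 and 159756. Neighbouring groups in that order differed by less than the SD within a group.

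**Figure D2:**
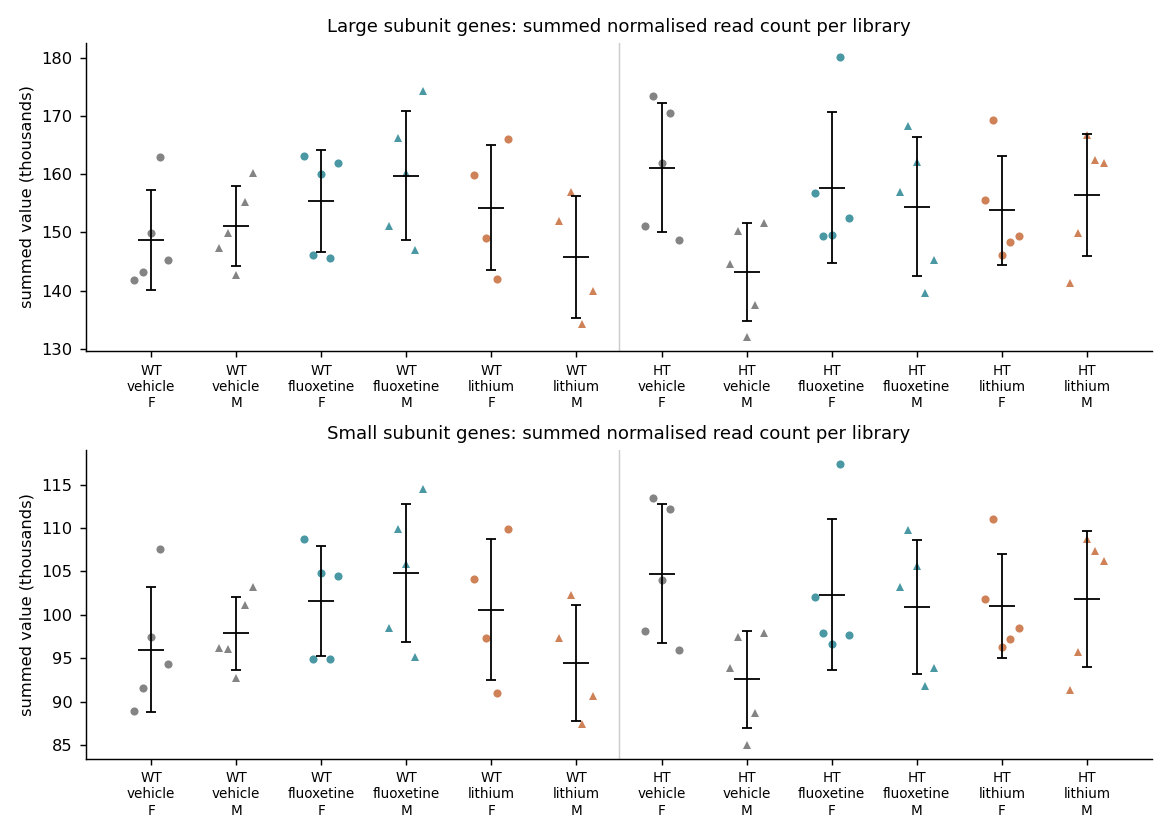
Summed normalised read count (in units of 1000) of the large subunit genes (top) and the small subunit genes (bottom) in each library, by genotype, drug and sex. Points are libraries (circles females, triangles males), bars mean ± SD, and the vertical axes do not start at 0. Group ranges overlap, and HT vehicle males sit lowest in the large subunit sum at 143201 on average.

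Recovered reads ran from 22.9 M to 35.01 M per library. The 9 cortical neuron markers in the list (Tbr1, Slc17a7 and others) summed to between 116994 and 160464 in every library, and 0 of them were at 0 throughout. Markers of adjoining tissue varied far more. The 8 olfactory bulb markers summed to between 743 and 26831 and the 7 choroid plexus markers to between 157 and 33055. In these bulk samples, fewer cells of a type and less RNA per cell cannot be told apart.

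Lithium in HT mice was the comparison in which ribosomal protein genes passed the test. Rpl14 fell (0.859-fold) and Rps15a rose (1.12-fold), and no other member passed. These 2 called genes are 2 of 83 tested members, beside 64 of all 16606 genes tested (0.385%). Counts, errors and p-values come from limma, with Benjamini-Hochberg adjustment over all genes tested.

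Rpl14 encodes a large subunit protein (chr9:120571444-120574654 on GRCm38, plus strand), and its start carries the pyrimidine run shown above. In HT vehicle females its values were 2482, 2803, 2601, 2891 and 2650, and in HT vehicle males 2707, 2821, 2412, 2529 and 2940. In HT lithium females they were 2231, 2532, 2209, 2233 and 2158, and in HT lithium males 2153, 2270, 2383, 2527 and 2353. All 10 lithium libraries lay under the mean of the vehicle libraries of their sex, and the groups overlapped between 2412 and 2532. The change was -0.22 ± 0.045 (log2 ± SE, 0.859-fold, adjusted p = 0.0149, lower in 10 of 10 libraries). It was -0.24 ± 0.064 in females and -0.20 in males, and neither sex alone passed the test (adjusted p = 0.59 and 0.269). The near-identical copies of Rpl14 held 0.7% of the summed value, and with them the change was -0.23 ± 0.043 (adjusted p = 0.00456).

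Rps15a encodes a protein of the small subunit (chr7:118104372-118116188, minus strand). In HT vehicle females its values were 3586, 3349, 3459, 3391 and 3083, and in HT vehicle males 3175, 3058, 2991, 3107 and 3407. In HT lithium females they were 3783, 3731, 3544, 3717 and 3528, and in HT lithium males 3365, 4044, 3759, 3578 and 3362. The lithium libraries were the higher ones, with an overlap between 3362 and 3586. The change was 0.16 ± 0.035 (1.12-fold, adjusted p = 0.023, higher in 10 of 10 libraries), with 0.12 in females and 0.20 ± 0.050 in males. The call was lost without HT lithium male 2 (adjusted p = 0.0527), HT lithium male 3 (0.0548) or HT vehicle female 5 (0.0509), where the change was 0.14, 0.15 and 0.14. No near-identical copy of Rps15a was found, and it was one of the members that followed the others least (r = 0.416), while Rpl14 followed them at r = 0.767.

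Markers of adjoining tissue and of other cell types differed beside these calls. Choroid plexus markers in HT lithium against HT vehicle had a median change of 0.67, with 7 of 7 above 0, and striatal markers 0.23, with 6 of 8 above 0. Olfactory bulb markers had 0.28, with 8 of 8 above 0. Their median sum went the other way, with wide ranges. It was 1604.5 in HT lithium (748 to 20689) and 1867.3 in HT vehicle (771 to 15554). Below 0 lay the medians of mural cell (-0.20, 1 of 5 above 0), endothelial (-0.16, 1 of 6), cortical neuron (-0.10, 0 of 9), oligodendrocyte precursor (-0.081, 0 of 5) and microglial markers (-0.074, 0 of 7). None of these genes passed the test. The microglial sum ran from 6982 to 9395 with a median of 8065 in HT lithium, and from 7742 to 9926 with a median of 8874 in HT vehicle. The mural cell sum had medians of 5499 and 6366. The part of these cell types in the calls was not tested. The choroid plexus sum ran from 181 to 25453 in HT lithium and from 192 to 329 in HT vehicle, and in single libraries it was therefore far above the rest. With summed striatal, olfactory bulb, choroid plexus and leptomeningeal markers as covariates, Rpl14 was at -0.24 ± 0.040 (adjusted p = 0.00184) and Rps15a at 0.15 ± 0.030 (adjusted p = 0.00913). With each library's trend over GC content and length removed, Rpl14 was at -0.25 ± 0.037 (adjusted p = 0.000167) and Rps15a at 0.17 ± 0.038 (adjusted p = 0.0263).

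**Figure D3:**
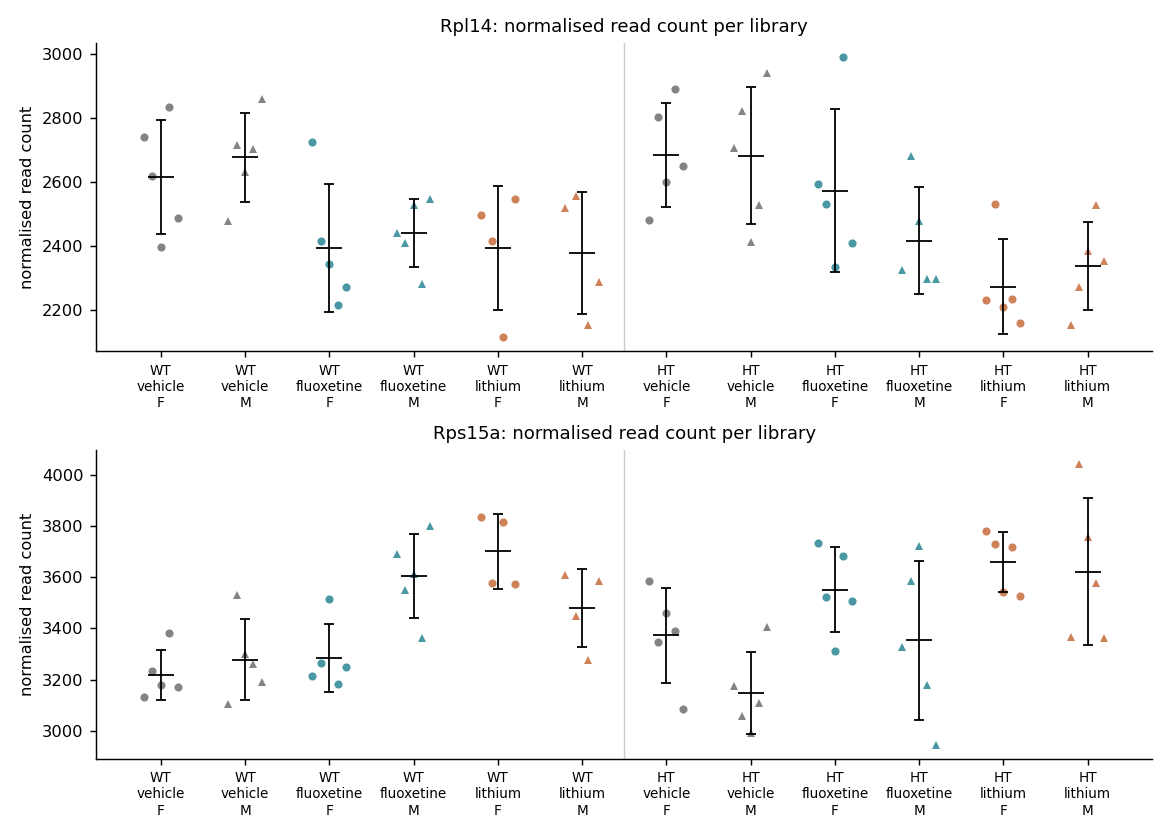
Normalised read count of Rpl14 (top) and Rps15a (bottom) in each library, by genotype, drug and sex. Points are libraries (circles females, triangles males), bars mean ± SD, and the vertical axes do not start at 0. In HT lithium, Rpl14 lies between 2153 and 2532 and Rps15a between 3362 and 4044, with vehicle libraries between 2412 and 2940 and between 2991 and 3586.

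The other members under lithium in HT had small changes in both directions. Of the 83 tested, 59 were above 0, with a median change of 0.033 for the large and 0.047 for the small subunit, beside a median of 0 for all genes. At an unadjusted p under 0.05 there were 21 members (25.3%), against 12.2% of all genes. Members moved together from library to library (median r of 0.616 between members). Here and in the comparisons below, their counts are therefore not separate observations. Next to the called genes stood Rpl22l1 at 0.265 ± 0.077 (adjusted p = 0.101, higher in 9 of 10 libraries). Its values ran from 539 to 752 with a median of 707 in HT lithium, and from 436 to 743 with a median of 554 in HT vehicle. Its paralog Rpl22 was at 0.080 ± 0.042. Rpl10a, a large subunit protein with 29.8% of its signal in a copy, was at 0.205 ± 0.068 (adjusted p = 0.159).

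Genes of the same translation pathway were read in lists under lithium in HT. Of 24 translation factors and host genes with TOP mRNAs, 2 fell and none rose. Of all 16606 genes tested, 36 fell and 28 rose (0.385% called). Eef1g, a subunit of the elongation factor that loads aminoacyl-tRNA, was at -0.185 ± 0.041 (adjusted p = 0.0238). Eef2, which moves the ribosome along the mRNA, was at -0.12 ± 0.028 (adjusted p = 0.0291). Pabpc1, the poly(A)-binding protein, had -0.16 ± 0.042 and did not pass (adjusted p = 0.0796). The list's median was -0.010, with 10 of 24 above 0. Called TOP mRNAs thus included genes that fell (Rpl14, Eef1g and Eef2) and 1 that rose (Rps15a).

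Of 27 genes of mTORC1 and its control of TOP mRNAs, 1 rose, beside 28 of all 16606 genes tested. Sesn2, a leucine sensor that restrains mTORC1, was at 0.26 ± 0.063 (adjusted p = 0.0348), and Ddit4, another restraint on mTORC1, at 0.32 ± 0.099 (adjusted p = 0.126). Larp1 was at -0.071 ± 0.029. Among 81 nuclear-encoded oxidative phosphorylation genes 2 rose, Atp5g3 at 0.20 ± 0.047 and Ndufb5 at 0.12 ± 0.028 (adjusted p = 0.0348 for both), with a list median of 0.092. None of 40 ribosome biogenesis factors, 78 mitochondrial ribosomal proteins or 10 genes of the p53 response to ribosomal stress passed, with medians of 0.013, 0.031 and 0.081. Rack1, a ribosomal protein under another name, was at 0.081 ± 0.054 and did not pass.

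Lithium in WT mice gave no called member, beside 5 of all genes (0.0301%). By edgeR and DESeq2 on the recovered reads there was none either, and 4 members (4.82%) had an unadjusted p under 0.05, beside 9.38% of all genes. The 3 smallest p belonged to Rps15a, Rpl14 and Rpl27. Rps15a was at 0.14 ± 0.037 (adjusted p = 0.127, higher in 7 of 8 libraries). Its values were 3836, 3578, 3817 and 3573 in WT lithium females, all above the 3130 to 3380 of WT vehicle females, and 3609, 3449, 3278 and 3587 in WT lithium males, overlapping the 3105 to 3531 of WT vehicle males. Rpl14 was at -0.15 ± 0.048 (adjusted p = 0.236, lower in 8 of 8 libraries), between 2114 and 2555 in WT lithium and between 2398 and 2859 in WT vehicle. Rpl27 was at 0.094 ± 0.044 (adjusted p = 0.481).

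The difference between genotypes was tested itself. The lithium effect in HT minus that in WT was -0.068 ± 0.066 for Rpl14 and 0.016 ± 0.051 for Rps15a (adjusted p = 0.998 for both), so a difference was not shown for either gene. No member passed in this contrast, beside none of all genes (0%), and 6 members (7.23%) had an unadjusted p under 0.05, beside 3.67% of all genes. By edgeR and DESeq2 none passed. The 3 smallest p were those of Rpl22l1 (0.30 ± 0.112), Rpl10 (0.42 ± 0.178, and 0.058 ± 0.059 with its copies) and Rpl39 (0.26 ± 0.115), each with adjusted p = 0.998. Of all members, 46 of 83 were above 0 under lithium in WT, with medians of 0.002 and 0.011 for large and small subunits. Under other scalings between 30 and 53 were above 0 and the median ran from -0.011 to 0.014, so the members had no stable direction in WT lithium.

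Under fluoxetine most members lay slightly above 0, with none past the test in either genotype. In WT, 73 of 83 members were above 0, with a median change of 0.070 for the large and 0.102 for the small subunit, and no member was called, beside 61 of all genes (0.367%). At an unadjusted p under 0.05 there were 28 members (33.7%), against 13.4% of all genes, and edgeR and DESeq2 called none. Rpl17, next to the peptide exit tunnel in the large subunit, was at 0.17 ± 0.052 (adjusted p = 0.108, higher in 10 of 10 libraries). It ran from 3591 to 4689 with a median of 3947 in WT fluoxetine and from 3070 to 4163 with a median of 3528 in WT vehicle. Rps24, which is needed for processing the small subunit's rRNA, was at 0.15 ± 0.050 (adjusted p = 0.154), and Rpl14 at -0.13 ± 0.045 (adjusted p = 0.16, lower in 9 of 10 libraries). Rps15a was at 0.083 (adjusted p = 0.274). With array weights, which give noisier libraries less weight, 6 members (7.23%) passed, among them Rpl17 upward and Rpl14 downward, beside 859 of all genes (5.17%).

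In HT, fluoxetine gave 68 of 83 members above 0, with medians of 0.046 and 0.051 for large and small subunits. None was called by limma, edgeR or DESeq2, beside none of all genes in limma (0%), and 15 members (18.1%) had an unadjusted p under 0.05, beside 9.19% of all genes. The smallest p belonged to Rpl17 at 0.17 ± 0.052 (adjusted p = 0.279), followed by Rpl36a at 0.16 ± 0.061 (adjusted p = 0.382) and Rpl13 at -0.20 ± 0.079 (adjusted p = 0.396). Rpl14 was at -0.11 (adjusted p = 0.445) and Rps15a at 0.081 (adjusted p = 0.461). The fluoxetine effect in HT minus that in WT called no member and no gene (0%), and 1 member (1.2%) had an unadjusted p under 0.05, beside 4.78% of all genes. By edgeR and DESeq2 no member passed. The 3 smallest p were those of Rpl13 (-0.27 ± 0.111), Rps21 (-0.16 ± 0.093) and Rpl10 (0.26 ± 0.173), each with adjusted p = 0.964. For Rpl14 this difference was 0.023 ± 0.064 and for Rps15a -0.002 ± 0.050.

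Other genes moved beside the members under fluoxetine. In WT the effect on all genes ran with GC content at r = 0.227 and with log2 length at r = -0.11 over 16595 genes. With each library's trend over GC and length removed, 67 of 83 members were above 0 in WT with a median of 0.048, and 57 in HT with a median of 0.034. Nuclear-encoded oxidative phosphorylation genes were above 0 in 64 of 81 in WT (median 0.052) and 73 of 81 in HT (median 0.060). Translation factors with TOP mRNAs were above 0 in 20 of 24 in WT (median 0.027). Mural cell markers lay at a median of -0.31 in WT and -0.28 in HT, with none of 5 above 0. No gene of these lists passed. The drug comparisons within a genotype share their vehicle libraries, and likeness between them is therefore no separate result.

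**Figure D4:**
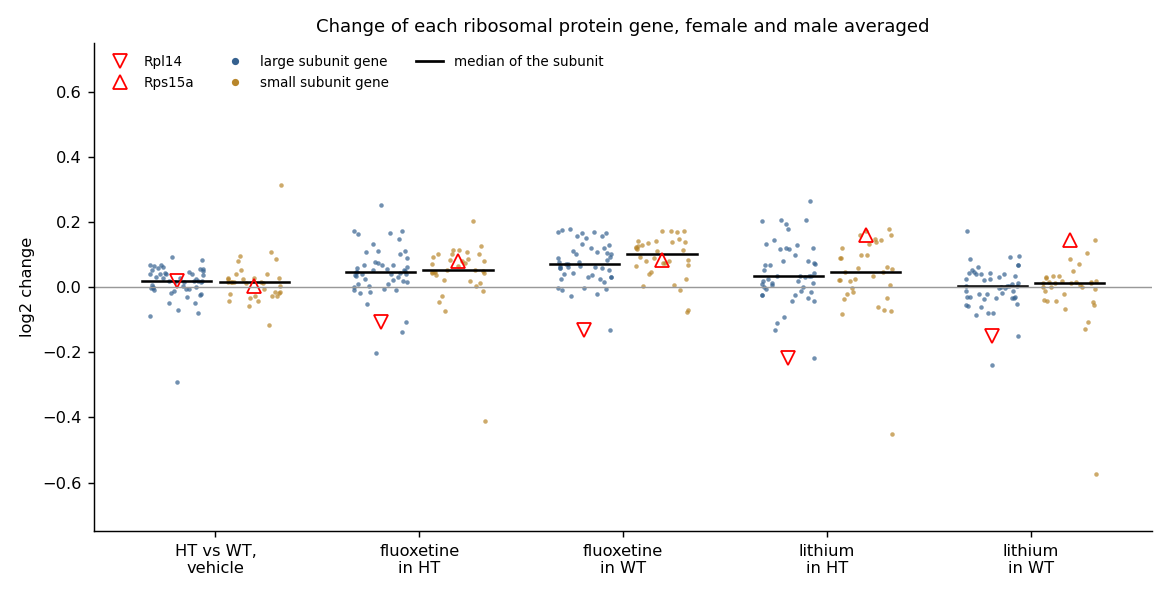
Log2 change (vertical axis) of each of the 83 tested ribosomal protein genes in 5 comparisons, averaged over females and males. Dots are genes (blue large, ochre small subunit), lines the median of each subunit, and triangles mark Rpl14 and Rps15a, which lie at -0.22 and 0.16 under lithium in HT. The low outlying small subunit gene is Rps27, at -0.45 under lithium in HT.

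The Tbl1xr1 genotype under vehicle gave no called member and no stable direction. No member was called by limma, edgeR or DESeq2, beside 3 of all genes in limma (0.0181%), and 2 members (2.41%) had an unadjusted p under 0.05, beside 5.76% of all genes. Of the 83 members, 53 were above 0, with medians of 0.018 and 0.014 for large and small subunits, and under other scalings between 35 and 62 were, with a median from -0.008 to 0.029. The smallest p was that of Rpl10 at -0.29 ± 0.122 (adjusted p = 0.779). Rpl10, an X-linked subunit that joins late in maturation of the large subunit, ran from 726 to 1328 in HT vehicle and from 847 to 1567 in WT vehicle. Its copy Rpl10-ps3 was at 0.11 ± 0.050, and with the copies added the change was -0.006 ± 0.041. Rps24 was at 0.11 ± 0.050 (adjusted p = 0.852) and Rpl19 at 0.083 ± 0.053 (adjusted p = 0.881). Rpl14 and Rps15a were at 0.019 and 0.004.

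Between females and males, averaged over the 6 conditions, 74 of 83 members were above 0 in females, by a median of 0.037 for the large and 0.035 for the small subunit. No member was called by limma, edgeR or DESeq2, beside 19 of all genes in limma (0.114%), and 11 members (13.3%) had an unadjusted p under 0.05, beside 7.56% of all genes. The 3 smallest p were those of Rpl35a (0.090 ± 0.031, adjusted p = 0.529), Rpl36al (0.080 ± 0.031, adjusted p = 0.568) and Rps28 (0.091 ± 0.037, adjusted p = 0.587). The 4 X-linked members were Rpl10 at 0.10 ± 0.072, Rpl36a at 0.049 ± 0.036, Rpl39 at 0.042 ± 0.046 and Rps4x at 0.015 ± 0.023, and none passed. Their mean values over all libraries were 1118, 1226, 1022 and 4461.

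The members' median effects had opposite signs in females and males in 4 of the 5 comparisons, all but fluoxetine in WT. HT against WT under vehicle was above 0 for 81 of 83 members in females, with medians of 0.115 and 0.112 for large and small subunits, and for 4 of 83 in males, with medians of -0.076 and -0.11. Fluoxetine in HT was above 0 for 25 members in females and 74 in males, where the medians were 0.103 and 0.118. Lithium in HT was above 0 for 23 in females, with medians of -0.046 and -0.048, and 75 in males, with medians of 0.123 and 0.148. These comparisons share the 10 HT vehicle libraries, whose females had the highest and whose males had the lowest summed large subunit value, so they are not separate observations. In WT, where those libraries do not enter, fluoxetine was above 0 for 71 members in females and 72 in males. Lithium in WT was above 0 for 67 and 18, with medians of 0.050 and 0.058 in females and -0.048 and -0.065 in males. Both WT drug comparisons share the WT vehicle libraries with HT against WT under vehicle, so they are not separate from it either.

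No member was called within either sex. Of all genes, HT against WT called 0.012% in females and 0.012% in males, fluoxetine in HT 0.00602% in females and fluoxetine in WT 0.933% in females, and lithium in HT 0.00602% in females. At an unadjusted p under 0.05, HT against WT had 20 members in females (24.1%, beside 6.03% of all genes) and 6 in males (7.23%, beside 4.05%). Lithium in HT had 11 in females (13.3%, beside 5.81%) and 37 in males (44.6%, beside 9.73%). Fluoxetine in HT had 1 in females (1.2%, beside 5.13%) and 30 in males (36.1%, beside 9.36%). The HT males thus held the larger shares under both drugs. In WT, fluoxetine had 11 in females (13.3%, beside 16.3%) and 12 in males (14.5%, beside 7.22%), and lithium had 6 in females (7.23%, beside 5.89%) and 2 in males (2.41%, beside 4.55%).

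The sex difference of each effect was tested for every gene, and no member passed in any of the 5. The female minus male difference of HT against WT was above 0 for 82 of 83 members, with medians of 0.201 and 0.212, and 33 members (39.8%) had an unadjusted p under 0.05, beside 4.31% of all genes and none called (0%). The smallest p was that of Rpl36a at 0.475 ± 0.123 (adjusted p = 0.593), then Rps21 at 0.42 ± 0.131 (adjusted p = 0.825) and Rps10 at 0.37 ± 0.124 (adjusted p = 0.988). For lithium in HT the difference was above 0 for 4 members, with medians of -0.23 and -0.20, led by Rpl35 at -0.555 ± 0.158, Rpl30 at -0.375 ± 0.114 and Rpl22 at -0.245 ± 0.083 (adjusted p = 1 for each), beside none of all genes (0%). For fluoxetine in HT it was above 0 for 6, with medians of -0.13 and -0.16, with Rpl22 at -0.245 ± 0.083 and Rpl30 at -0.32 ± 0.114 (adjusted p = 0.87 for each), beside none of all genes (0%). No member was called in these 3 contrasts by edgeR or DESeq2 either, with 35 members (42.2%, beside 3.13% of all genes) at an unadjusted p under 0.05 under lithium and 12 (14.5%, beside 5.03%) under fluoxetine. Because members moved together from library to library, these counts of members are not separate observations.

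In WT the sex differences were smaller. For fluoxetine 33 of 83 members were above 0 and none was called, beside 3 of all genes (0.0181%), with 2 members (2.41%) at an unadjusted p under 0.05, beside 10.7% of all genes. The 3 smallest p were those of Rps27 (1.64 ± 0.774, adjusted p = 0.448), Rpl13 (0.32 ± 0.158) and Rps19bp1 (0.22 ± 0.11). With Rps27rt added to Rps27 its difference was -0.013 ± 0.172. For lithium in WT 80 members were above 0, with medians of 0.089 and 0.116, 1 (1.2%) had an unadjusted p under 0.05, beside 1.82% of all genes, and none of all genes was called (0%). There Rpl36a was at 0.28 ± 0.130, Rps23 at 0.19 ± 0.098 and Rpl4 at 0.12 ± 0.063 (adjusted p = 1 for each). By edgeR and DESeq2 no member was called in either WT contrast.

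Technical and tissue measures moved beside the sex differences in HT. Over 16595 genes, the female minus male difference of HT against WT ran with log2 length at r = -0.164 and with GC content at 0.166, and that of lithium in HT at 0.16 and -0.123. With each library's trend over GC and length removed, the members' medians were 0.138 and -0.089, with 80 and 16 of 83 above 0. Nuclear-encoded oxidative phosphorylation genes were above 0 in 70 of 81 (median 0.119) and 15 of 81 (median -0.093). Erythroid markers lay at a median of -0.62 and 0.44. Choroid plexus markers lay at -0.87 and -0.82, with the same sign in both contrasts, unlike the members. Single libraries weigh on these choroid plexus values. The markers' mean log2 deviation from the group mean was 4.051 in WT vehicle female 4 and 3.733 in HT lithium male 1. The part of these technical and tissue measures in the members' pattern was not tested.

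**Figure D5:**
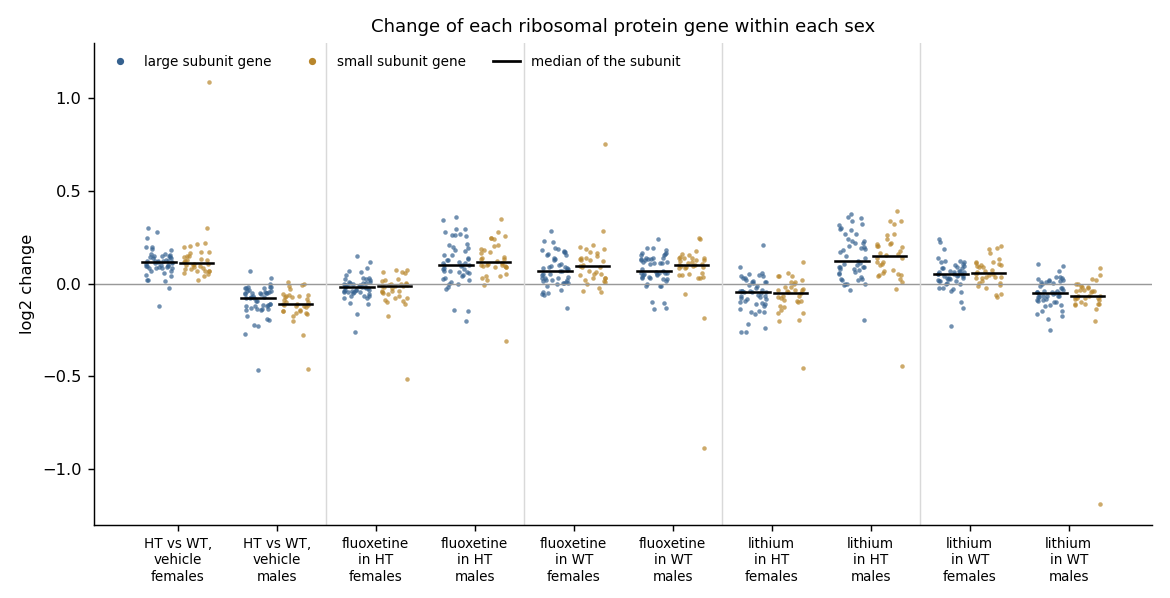
Log2 change (vertical axis) of each of the 83 tested ribosomal protein genes within females and within males for 5 comparisons. Dots are genes (blue large, ochre small subunit) and lines the median of each subunit. Females and males lie on opposite sides of 0 for HT against WT under vehicle, at large subunit medians of 0.115 and -0.076, and the far points are Rps27.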

How the data were processed

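The submitters' processing notes list GRCm38, DESeq2 1.19.11, Salmon 0.11.2 and R 3.6.0. The deposited table holds a linear signal: estimated read counts over a size factor specific to the library, as the authors' values show. Dividing by the step gave whole reads in 100% of cases at a tolerance of 0.0001. In 6 libraries the step lay so close to 1 that this check cannot tell it from rounding, so their recovered reads, and the depth and count tests that use them, are less certain. Libraries are polyadenylated and stranded, per the labels' protocols. Gene models came from GENCODE M21 (18077 IDs matched), start sites from RefSeq, and near-identical copies from blastn.

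Tests used limma 3.58.1 (trended variance) on log2(value + 1) in R 4.3.3, and 16606 genes whose mean reached 10 entered. Such a fold change understates the change of low genes. All 58 libraries were fitted as 12 group means (46 residual degrees of freedom), with females and males averaged at equal weight and Benjamini-Hochberg adjustment at 0.05. "Rose", "fell" and "called" mean past that threshold. Errors of changes are SE and those of levels SD.

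Named genes are the called members, else the 3 of smallest p per comparison, those at the extremes of level and spread, the X-linked members and paralog pairs; genes of the other lists are those of smallest p, up to 3. Members and lists were chosen with earlier results of these data known. Alternatives included edgeR 4.0.16 and DESeq2 1.42.0 on recovered reads. On simulated data for lithium in HT, over 16512 genes, 42% of genes changed by 0.25 (log2) and 82% of those changed by 0.5 were recovered, and 7 unchanged genes were called in that run, 4.27% of all its calls over changes of every size. Values of some genes that the rule for named genes selects are not reported here.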

Additional observations from a re-analysis of the deposited data

Results flagged for a closer look

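Dixon's rule was applied to the highest and lowest library of each group for 7 values, the summed large and small subunit levels and Rpl14, Rps15a, Rpl10, Rps27 and Rpl22l1. Of these 84 combinations of group and value, 7 held a library far from the others. Chance gives about 1 in 20 for separate, normally spread values. The combinations are not separate, as the large and small subunit sums move together, so the count cannot be set against that rate.

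HT fluoxetine female 4 stood above its group in the summed large subunit value (180202, next library 156818), in the summed small subunit value (117378, next 102021) and in Rps27 (172, next 66.9). It was also the library with the strongest length trend. HT lithium female 2 had the highest Rpl14 of its group (2532, next 2233). WT fluoxetine female 3 had the highest Rps15a (3515, next 3265). Rps27 was far above its group in HT lithium female 4 (385, next 56.9) and WT vehicle male 3 (361, next 135), and its reads are split with Rps27rt. No member's effect passed the test of a difference between genotypes or between sexes.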

How the results depend on the processing

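Of the counts of called members, those of fluoxetine in WT and of lithium in both genotypes changed with a setting. For fluoxetine in WT, 0 members became 6 with array weights, and 1 (Rpl14) with the GC and length trend removed (-0.19, adjusted p = 0.00992) or with covariates for adjoining tissue (-0.15, adjusted p = 0.0478). For lithium in WT, 0 became 1 (Rps15a) with array weights (adjusted p = 0.0102) and with those covariates (adjusted p = 0.0421). For lithium in HT, 2 became 1 (Rpl14) when only the groups of the comparison were fitted (Rps15a adjusted p = 0.0966) and 0 in females alone or males alone, which have fewer libraries; leaving out 1 library gave 1 to 2, with adjusted p from 0.008 to 0.0421 for Rpl14 and from 0.015 to 0.0548 for Rps15a. All other settings gave 2 members for lithium in HT, and edgeR gave adjusted p = 0.0182 for Rpl14 and 0.0216 for Rps15a. The cause of these shifts was not tested. Among the genes and values named in the text, some signs turned with a setting, none of them called, and only examples are given. Rps15a averaged 3147.6 in HT vehicle males and 3277.9 in WT vehicle males, while its change over both sexes was above 0. Rpl22 averaged 2155.3 in HT lithium females and 2220.9 in HT vehicle females, while its lithium change over both sexes was above 0. Counts of members above 0 within each sex, which differ from those of both sexes, are given with the sex comparisons. In males alone, HT against WT was -0.001 for Rps24 and -0.016 for Rpl19, and the WT fluoxetine sex difference of Rps27 was -0.013 with Rps27rt added.

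The number of all genes called moved more. For fluoxetine in WT it was 61, and 859 with array weights, 209 by DESeq2, 185 with covariates, 21 with the trend removed, 37 after centring and 11 with only its groups, and 18 to 347 with 1 library left out. For lithium in HT it was 64, and 166 by DESeq2, 117 when rescaled without ribosomal protein and mitochondrial genes, 109 with array weights and 16 with only its groups, and 25 to 84 with 1 library left out. For lithium in WT it was 5, and 284 with array weights, 38 by DESeq2, 36 with covariates, 14 with the trend removed, 3 with upper-quartile rescaling and 0 after centring, and 0 to 44 with 1 library left out.

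Libraries sharing a replicate number had a median r of 0.002 (309 pairs, from -0.488 to 0.576), against -0.004 for 1232 pairs with other numbers. No pairing by number was seen, but a median cannot exclude pairing of some libraries. The numbers are those of the sample titles, which differ from the library names for some WT lithium males. With the replicate block, lithium in HT kept 2 called members, Rpl14 at adjusted p = 0.0108 and Rps15a at 0.025, and no other comparison called one. Per kb of the longest transcript, Rpl19 was at 7592 and Rpl12 at 103. Depth was between 22.9 M and 35.01 M reads.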
